A study of Mus musculus with 6 samples.

Results

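Translation initiation and elongation factors were taken by gene symbol: every gene named Eif or Eef followed by a digit, without the Eif4ebp genes, which encode inhibitors of eIF4E. The rule found 61 of 24391 annotated genes. It is a rule on names, so besides factors it takes the 4 kinases of eIF2 alpha, the kinase of eEF2, the methyltransferase gene Eef2kmt and Eef1e1, which encodes a scaffold of the aminoacyl-tRNA synthetase complex. The cells, named mRPMaxKO, are a mouse line (129/SvJ; C57BL/6) from an RPMax-/- lung tumour, which had lost Rb1, p53 and Max, and their RNA was sequenced. All libraries came from a polyclonal, puromycin-selected population with a doxycycline-inducible lentiviral vector, below passage 20. The 3 libraries labelled control were compared with 3 labelled MAX restored, and 4 days of doxycycline are given in the same words for all 6. Those words do not set the control arm apart, so whether it held an empty vector or was itself given the drug is not clear. Effects of MAX, vector and doxycycline thus cannot be told apart. Nothing in the labels speaks of independent cultures, and the p-values then reflect only the spread between these libraries, which may be technical.

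Translation starts when eIF2, bound to GTP, carries the initiator tRNA to the small ribosomal subunit. eIF3 is the scaffold of that step, and eIF4F brings the capped messenger RNA, unwound by its helicase. eIF2B reloads eIF2 with GTP, and stress kinases stop that exchange by phosphorylating eIF2 alpha. During elongation eEF1A delivers aminoacyl-tRNAs, the eEF1B subunits reload eEF1A with GTP, and eEF2 moves the ribosome along. MYC proteins bind DNA at the E-box CACGTG as pairs with MAX, and genes of ribosomes and of translation are among the textbook targets of MYC.

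Libraries held between 10046899 and 11925909 counts. Max was at 63.5 ± 2.47 CPM in the controls and 1327 ± 18.7 CPM with MAX restored (SD, n = 3 each; log2 4.38, SE 0.04, adjusted p = 1.68e-24 by edgeR), where CPM is the count per 1000000 of the library size scaled by TMM. Control 1 stood apart from the other controls, with a chi-square per degree of freedom of 8.91 and 10.2 against them. Controls 2 and 3 had 1.505 between them, and the 3 pairs of MAX restored libraries 1.24 to 1.46. The ribosomal RNA gene Rn45s took 0.996% of the counts of control 1, against 0.109% to 0.187% in the other 5 libraries. The chi-square includes Rn45s, and how much of the distance of control 1 rests on that gene was not separated. Of 9 neuroendocrine markers, which define the small cell lung cancer cell type, 6 were higher and 1 lower with MAX restored, and their summed level went from 8952 to 9182 CPM in the controls to 9344 to 9677 CPM. The 10 fibroblast markers, 2 of them tested and both higher, summed to 4.79 to 5.15 CPM in the controls and 6.47 to 7.49 CPM with MAX restored. The 8 immune markers, 2 tested and neither past the threshold, summed to 1.49 to 2.96 CPM and 2.497 to 3.32 CPM, and Lum, Cd3e and Adgre1 were at 0 in all libraries. Of 6 endothelial markers Vwf alone was tested, and was lower (559 ± 28.2 to 432 ± 17.8 CPM), with Cdh5 at 0. The part of these markers in the results below was not tested.

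Of the 61 genes, 57 had enough counts to be tested, and 42 of them were lower with MAX restored, 2 were higher and 13 did not pass (adjusted p under 0.05, edgeR's quasi-likelihood test over all 12664 genes tested). Among all genes tested 32.3% were lower and 31.2% higher, while among the tested members 73.7% were lower and 3.51% higher. The shifts were small: the median log2 fold change of the members was -0.28, against 0.00 over all genes (-0.0036), and no member moved by 1 or more. The 2 groups had separate CPM ranges for 44 members (77.2%), against 67.1% of all genes. Without control 1 the members split into 44 lower and 3 higher, and of all 12812 genes then tested 4219 were lower and 4033 higher. Scaling makes each change relative to the other genes, and in bulk RNA fewer cells of a type and less RNA per cell cannot be told apart.

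**Figure D1:**
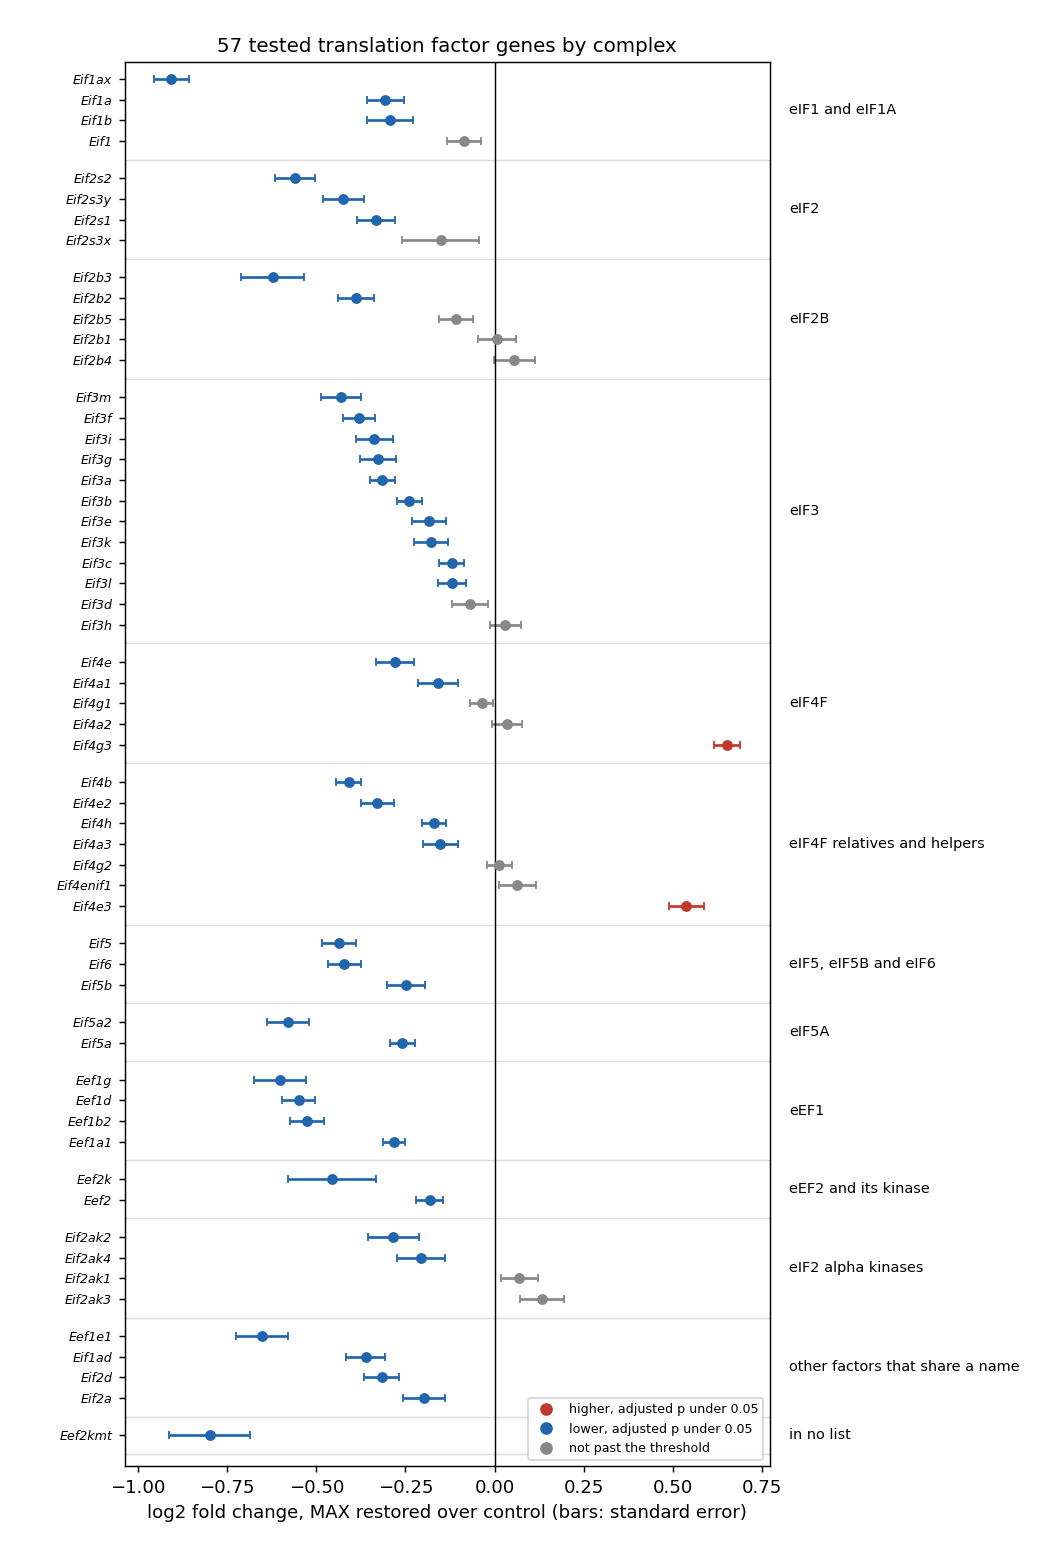
Log2 fold change (MAX restored over control, x axis) of each of the 57 tested genes, grouped by complex, with standard errors as bars and the call as colour. Eif4g3 at 0.65 and Eif4e3 at 0.54 are the 2 red points, and the blue points reach down to Eif1ax at -0.91.

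Subunits called lower were counted in each complex, beside 32.3% lower and 31.2% higher among all tested genes. All 4 tested eEF1 subunits were lower, 3 of 4 eIF2 subunits, 10 of 12 eIF3 subunits, 2 of 5 eIF2B subunits and 2 of 5 eIF4F subunits, with 1 eIF4F subunit higher. The 40.0% lower in eIF2B and in eIF4F lie near the share of all genes. Median log2 fold changes were -0.54 for eEF1, -0.38 for eIF2, -0.21 for eIF3, -0.11 for eIF2B and -0.04 for eIF4F. These counts and medians describe the lists, and the differences between complexes were not tested.

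**Figure D2:**
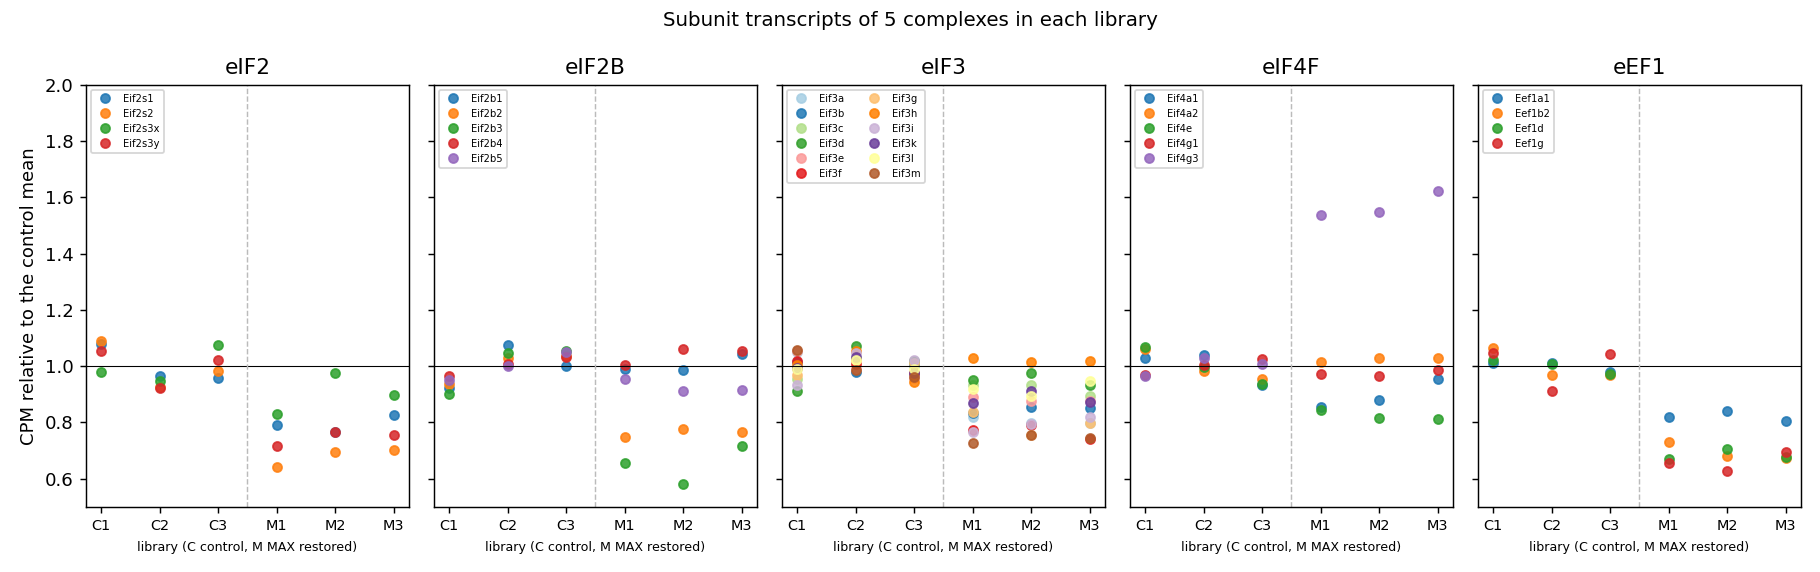
CPM of each tested subunit in each library (C control, M MAX restored) relative to that subunit's control mean, for 5 complexes. With MAX restored the eEF1 subunits lie below all controls, eIF2B and eIF3 subunits spread out, and Eif4g3 lies above every other point.

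eIF2 has an alpha, a beta and a gamma subunit, the last encoded by a pair of genes on X and Y. The alpha gene Eif2s1, whose protein carries the regulatory phosphorylation site, was at 96.5, 86.2 and 85.6 CPM in controls 1, 2 and 3 and at 70.7, 68.6 and 74.0 CPM in MAX restored libraries 1, 2 and 3, the order used below. It fell 1.26-fold (log2 -0.33, SE 0.05, adjusted p = 2.15e-05). Every control lay above every MAX restored library, and control 1 was the highest. The beta gene Eif2s2 fell most, 1.47-fold, from 119, 101 and 108 CPM to 70.2, 76.0 and 76.6 CPM (log2 -0.56, SE 0.06). Eif2s3y, the gamma gene on Y, fell 1.34-fold, from 74.9, 65.4 and 72.6 CPM to 50.8, 54.4 and 53.4 CPM. Neither gene's groups overlapped. Eif2s3x, the gamma gene on X, was at 13.1, 12.7 and 14.4 CPM in the controls and 11.1, 13.0 and 12.02 CPM with MAX restored. Its groups overlapped and it did not pass (log2 -0.15, SE 0.11, adjusted p = 0.225).

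eIF2B, the exchange factor of eIF2, is built from regulatory subunits alpha, beta and delta (Eif2b1, Eif2b2, Eif2b4) and catalytic subunits gamma and epsilon (Eif2b3, Eif2b5). Eif2b3 was the larger faller, with 29.0, 33.7 and 33.9 CPM in the controls and 21.1, 18.6 and 23.1 CPM with MAX restored (1.54-fold, log2 -0.62, SE 0.09, adjusted p = 4.81e-06). Eif2b2 went from 82.9, 91.1 and 91.6 CPM to 66.3, 68.7 and 67.8 CPM (1.31-fold, log2 -0.39, SE 0.05). In both genes all MAX restored libraries lay below all controls. Eif2b5, which holds the catalytic domain, was at 90.7, 95.4 and 100 CPM against 91.0, 87.0 and 87.3 CPM. It missed the threshold (log2 -0.11, adjusted p = 0.0525) with control 1 inside the range of the MAX restored libraries, and without control 1 it passed (log2 -0.15, adjusted p = 0.00522). Eif2b1 (81.4, 94.8 and 88.2 against 87.1, 86.8 and 91.7 CPM, log2 0.01) did not pass, with control 1 the lowest library. Eif2b4 (45.0, 47.0 and 48.1 against 47.0, 49.5 and 49.2 CPM, log2 0.06, SE 0.06) did not pass either. The subunits of this complex thus had fold changes between -0.62 and 0.06 on the log2 scale.

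Of the 4 kinases that act on eIF2 alpha 2 were lower and 2 did not pass. Beside them stand 32.3% lower and 31.2% higher among all tested genes. The list of 4 is short, and its difference from all genes was not tested. Eif2ak2, encoding the double-stranded RNA sensor PKR, was lower (35.8 ± 2.66 to 29.4 ± 0.546 CPM, log2 -0.28), as was Eif2ak4, encoding the amino acid sensor GCN2 (36.7 ± 1.65 to 31.8 ± 0.820 CPM, log2 -0.21). Eif2ak1, encoding the haem-regulated kinase, had a log2 fold change of 0.07 (SE 0.05) and Eif2ak3, encoding the endoplasmic reticulum kinase PERK, one of 0.13 (SE 0.06), and neither passed. The Eif2ak4 call was lost without MAX restored library 3 (adjusted p = 0.0501) and with DESeq2 (0.0522). Eif2ak3 passed as higher without control 2 (log2 0.18), without MAX restored library 1 (log2 0.18), with upper quartile scaling (log2 0.16, adjusted p = 0.0298) and with the replicate number as a block (adjusted p = 0.0435).

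eIF3 was the largest complex, and 10 of its 12 tested subunits were lower, with log2 fold changes from -0.43 to 0.03 over the 12. The lowest were Eif3m, Eif3f and Eif3i. Eif3m went from 65.2, 60.8 and 59.2 CPM to 44.9, 46.6 and 46.0 CPM (1.35-fold, log2 -0.43, SE 0.06, adjusted p = 1.28e-06). Eif3f, which has a deubiquitinase-like domain, went from 204, 202 and 195 CPM to 155, 159 and 149 CPM (1.30-fold, log2 -0.38, SE 0.04). Eif3i, a WD-repeat subunit, went from 120, 134 and 131 CPM to 98.2, 102 and 105 CPM (1.26-fold, log2 -0.34, SE 0.05). None of these groups overlapped, and each gene had a spread within groups smaller than the step between them.

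At the other end Eif3h was at 232, 243 and 219 CPM in the controls and 238, 235 and 235 CPM with MAX restored (log2 0.03, SE 0.04, adjusted p = 0.576). Eif3d, a subunit that can bind the cap itself, was at 240, 283 and 269 CPM against 251, 258 and 247 CPM (log2 -0.07, SE 0.05). Control 1 was the lowest of all 6 libraries for Eif3d, and without it the gene passed as lower (log2 -0.14, adjusted p = 0.000137). Eif3l was called at a small step, from 251, 259 and 251 CPM to 233, 227 and 241 CPM (log2 -0.12, SE 0.04, adjusted p = 0.0143). That call was lost without control 2 (adjusted p = 0.0558), MAX restored library 1 (0.0691) or library 2 (0.113). Between these ends lay Eif3a (-0.31), Eif3b (-0.24), Eif3c (-0.12), Eif3g (-0.33), Eif3e (-0.18) and Eif3k (-0.18), all called lower. The Eif3c call was lost without MAX restored library 3 (adjusted p = 0.0653).

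Eif3j1 and Eif3j2, a pair of genes for the j subunit, had no count in any library. Their annotated exons lie on each other on chromosome 2 (mm9, 121854316 to 121879368 and 121854319 to 121879367), so that 99.9% of the exon bases of Eif3j1 and 100% of those of Eif3j2 are shared with another gene. The authors' counting had no option to count reads that overlap several genes, so the zeros say nothing about the level of the j subunit. Of the other members, 7 share exon bases with a neighbouring gene, at most 21.9% (Eef2kmt with Alg1), 15.9% (Eif5b with Rev1) and 6.6% (Eif3m with Ccdc73).

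eIF4F joins the cap-binding protein eIF4E, the helicase eIF4A and the scaffold eIF4G, and helicase and scaffold have a pair of genes each. Eif4e, the cap-binding subunit, fell 1.21-fold, from 84.2, 78.8 and 73.9 CPM to 66.7, 64.3 and 64.1 CPM (log2 -0.28, SE 0.05, adjusted p = 0.000137). Its groups did not overlap. The helicase gene Eif4a1 was at 76.3, 77.1 and 69.3 CPM against 63.4, 65.4 and 70.9 CPM (log2 -0.16, SE 0.06, adjusted p = 0.0179). It was the 1 called member whose groups overlapped, control 3 lying below MAX restored library 3, and the call was lost without control 2, MAX restored library 1 or library 2 (adjusted p = 0.0732, 0.129 and 0.0813). The other helicase gene, Eif4a2, was at 294, 272 and 264 CPM against 280, 284 and 285 CPM (log2 0.03, SE 0.04, adjusted p = 0.494). Without control 1, its highest control, it passed as higher (log2 0.08, adjusted p = 0.0267).

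The scaffold genes had different values, a difference that was not tested. Eif4g1 was at 679, 704 and 719 CPM in the controls and 682, 676 and 691 CPM with MAX restored, with overlapping groups (log2 -0.04, SE 0.03, adjusted p = 0.338). Eif4g3 was at 272, 289 and 283 CPM in the controls and 433, 436 and 457 CPM with MAX restored, a 1.57-fold rise (log2 0.65, SE 0.04, adjusted p = 1.10e-11). No control came near the MAX restored libraries. In mm9 Eif4g3 spans bases 137549371 to 137762994 of chromosome 4 (plus strand, 37 annotated exons). The 50 tested genes around it, 25 on each side, had a median log2 fold change of 0.48, and 39 of them were called higher. The step of Eif4g3 above that median was 0.18, and the part of the neighbourhood in its rise was not tested.

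Of the 7 tested relatives of eIF4F and helpers of its helicase 4 were lower (57.1%), 1 was higher (14.3%) and 2 did not pass. Among all tested genes 32.3% were lower and 31.2% higher. Eif4b, whose protein stimulates eIF4A, fell 1.33-fold (412 ± 8.80 to 310 ± 6.76 CPM, log2 -0.41). Eif4h, with a like role, fell 1.13-fold (557 ± 15.4 to 495 ± 11.7 CPM, log2 -0.17). Eif4e2, a cap-binding protein that represses translation, was at 89.7, 92.1 and 93.7 CPM against 72.3, 75.4 and 71.6 CPM (1.26-fold lower, log2 -0.33, SE 0.05). Eif4e3, an atypical member of the cap-binding family, rose 1.45-fold, from 72.4, 65.6 and 70.9 CPM to 101, 97.7 and 104 CPM (log2 0.54, SE 0.05, adjusted p = 1.34e-08). The groups overlapped for neither gene, so that the cap-binding genes Eif4e and Eif4e2 fell while Eif4e3 rose. The genes around Eif4e3 had a median of 0.03.

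Eif4a3, the helicase of the exon junction complex, was lower by a small step (log2 -0.15, SE 0.05), and lost its call without control 2, MAX restored library 1 or library 2 (adjusted p = 0.102, 0.0649 and 0.0537). Eif4g2, a scaffold that lacks the eIF4E binding site, was the most abundant of these genes in CPM, at 1129 ± 36.4 against 1140 ± 45.6 (log2 0.01), and Eif4enif1, encoding the eIF4E transporter, had a log2 fold change of 0.06. Neither passed. Eif4e1b, an oocyte form of eIF4E, had 1 count in 6 libraries and was not tested.

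The E-box CACGTG was looked for in promoter windows of RefSeq (GRCm38.p6, from 250 bases before to 50 after each annotated start), of which 49 of the 61 genes have at least 1. The motif reads the same on both strands. It occurred in 12 of the 49 genes (24.5%), against 11.9% of 9671 tested genes with a window and 8.09% of all 27025 genes in the table. Of the 12 genes with the motif, 11 were lower and 1, Eif4g1, did not pass, while 35 of all 49 members with a window were lower. Thus 31.4% of the 35 lower members with a window held the motif, against 15.0% of all 3159 lower genes. Of all 1150 tested genes with the motif in a window 475 were lower, 395 did not pass and 280 were higher. No window was at hand for Eef1d, Eef1g, Eif1a, Eif2b3, Eif3e, Eif3h, Eif3i, Eif3j2, Eif4e1b, Eif4e3, Eif4g2 and Eif6. A match is a description of letters, and no binding was measured here. The windows below show eIF4F, eIF3 and elongation factor genes with the motif in capitals, read 5′ to 3′ on the strand of the gene. A number after the name says how far the first base of the motif lies from the annotated start.
Eif4e, chr3:138527028-138527057, plus strand, -228: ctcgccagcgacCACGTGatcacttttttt
Eif4e, chr3:138527192-138527221, plus strand, -64: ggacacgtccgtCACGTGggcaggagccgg
Eif4a1, chr11:69672595-69672624, minus strand, -189: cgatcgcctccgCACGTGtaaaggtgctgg
Eif4g1, chr16:20672661-20672690, plus strand, -54: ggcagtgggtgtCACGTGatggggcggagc
Eif3f, chr7:108934335-108934364, plus strand, -68: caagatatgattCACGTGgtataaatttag
Eif3k, chr7:28981915-28981944, minus strand, -44: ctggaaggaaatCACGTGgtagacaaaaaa
Eif5a2, chr3:28781123-28781152, plus strand, -142: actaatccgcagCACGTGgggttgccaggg
Eif5a2, chr3:28781148-28781177, plus strand, -117: cagggcgagcttCACGTGacggggcgggac
Eef2, chr10:81176576-81176605, plus strand, -43: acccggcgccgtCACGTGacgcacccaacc
Eif4e and Eif5a2 have 2 motifs each before the same start, and fell by 0.28 and 0.58 on the log2 scale. Eif4g1 has 1 motif before and 1 after its start, and its log2 fold change was -0.04. The other genes with the motif, not shown, were Eef2k, Eif1b, Eif3a, Eif4h and Eif5a, all lower.

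Factors of start site selection and of subunit joining were mostly lower. Eif1ax, the X-linked gene of eIF1A, fell most of all members, 1.87-fold, from 209, 196 and 196 CPM to 111, 104 and 106 CPM (log2 -0.91, SE 0.05, adjusted p = 3.82e-12). In mm9 it spans bases 155810127 to 155823631 of chromosome X (plus strand). The 50 tested genes around it had a median log2 fold change of -0.70, with 41 called lower, and Eif1ax lay 0.21 below that median. The part of the neighbourhood in this fall was not tested. Its autosomal relative Eif1a fell 1.24-fold (log2 -0.31), among neighbours with a median of 0.09. Of the eIF1 genes, which guard the choice of the start codon, Eif1b was lower (log2 -0.29, SE 0.06) and Eif1 was not past the threshold (log2 -0.09, SE 0.05). Eif5, the GTPase activator of eIF2, was lower at log2 -0.44, Eif6, which keeps ribosomal subunits apart, at -0.42, and Eif5b, the GTPase of subunit joining, at -0.25.

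eIF5A, which carries the modified amino acid hypusine and helps ribosomes past difficult stretches, is encoded by Eif5a and Eif5a2. Eif5a went from 415, 418 and 411 CPM to 359, 341 and 339 CPM (1.20-fold, log2 -0.26, SE 0.04). Eif5a2 went from 54.0, 53.4 and 50.7 CPM to 34.2, 35.5 and 36.3 CPM (1.49-fold, log2 -0.58, SE 0.06, adjusted p = 4.95e-08). Both genes had every MAX restored library below every control. The hypusine enzyme gene Dohh also fell (90.9 ± 3.48 to 63.8 ± 1.63 CPM, log2 -0.51). Dhps, the other hypusine enzyme gene, named here after its values were seen, was at 43.8 ± 0.412 and 43.8 ± 2.42 CPM and did not pass (log2 -0.0022, adjusted p = 0.976).

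The elongation factors were all lower where they could be tested. Eef1a1, the tRNA carrier and the second most abundant member, went from 1351, 1352 and 1310 CPM to 1097, 1124 and 1078 CPM (1.22-fold, log2 -0.28, SE 0.03, adjusted p = 1.46e-07). The genes of its exchange factor had lower log2 fold changes. Eef1b2 went from 288, 262 and 262 CPM to 197, 184 and 182 CPM (1.44-fold, log2 -0.53, SE 0.05). Eef1d went from 194, 191 and 185 CPM to 127, 134 and 129 CPM (1.46-fold, log2 -0.55, SE 0.05). Eef1g, a structural subunit, went from 42.9, 37.5 and 42.8 CPM to 27.0, 25.8 and 28.5 CPM (1.52-fold, log2 -0.60, SE 0.07). In each of the 4 genes every MAX restored library lay below every control, and the difference in fold change between Eef1a1 and the other 3 was not tested. Eef1a2, the form of muscle and neurons, had between 1 and 10 counts per library and was not tested.

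Eef2, the translocase and the member with the highest level, went from 2490 ± 167 to 2194 ± 67.1 CPM (1.13-fold, log2 -0.18, SE 0.04, adjusted p = 0.000403). Its kinase gene Eef2k, whose product slows elongation, was at 11.3 ± 0.923 against 8.22 ± 0.978 CPM (log2 -0.46, SE 0.12). Eef2kmt, encoding an enzyme that methylates eEF2, was at 13.7, 14.8 and 16.6 CPM in the controls and 8.74, 9.19 and 7.91 CPM with MAX restored (1.74-fold lower, log2 -0.80, SE 0.11, adjusted p = 5.03e-06). No library of one group reached the other group's range. Eef1e1, the synthetase scaffold, fell 1.57-fold, from 35.5, 37.7 and 34.4 CPM to 21.9, 22.7 and 23.9 CPM (log2 -0.65, SE 0.07, adjusted p = 2.07e-07). The remaining genes that share a name were lower too: Eif2a (log2 -0.20) and Eif2d (-0.32), which can bring initiator tRNA without eIF2, and Eif1ad (-0.36). The Eif2a call was lost without MAX restored library 1 (adjusted p = 0.0811).

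Eef1 and Eef2 genes and those of the e, f and h subunits of eIF3 have messenger RNAs of the TOP class, whose translation follows mTOR through a pyrimidine tract at the start. Of the 9 such genes 8 were tested and 7 were lower (87.5%, against 32.3% of all tested genes), with a median of -0.33. Eif3h was the 1 that did not pass. All 8 are also counted above with their complexes.

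For pairs of paralogs, the share of one gene in the summed level of both was computed from CPM per kb of annotated exon length. Reads that map to several places were not counted, and how much each gene lost this way was not tested. The shares thus describe the counted reads. Eif4g3 made up 25.6%, 26.1% and 25.3% of the summed Eif4g1 and Eif4g3 level in the controls and 35.3%, 35.7% and 36.3% with MAX restored, a difference of 10.1 percentage points. Eif4a2 made up 68.7% ± 1.02 of the eIF4A pair in the controls and 71.5% ± 1.05 with MAX restored, and Eif5a2 4.88% ± 0.128 and 3.96% ± 0.226 of the eIF5A pair (SD, n = 3). Groups overlapped in none of these 3 pairs, and an exact two-sided permutation test gave p = 0.1 for each, the smallest that 3 against 3 allows (0.15 after adjustment over 6 pairs). The share of Eif4e2 against Eif4e overlapped between groups (40.5% ± 2.10 and 39.7% ± 0.938, exact permutation p = 0.7). Eef1a2 was at most 0.0670% of the eEF1A pair in any library.

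**Figure D3:**
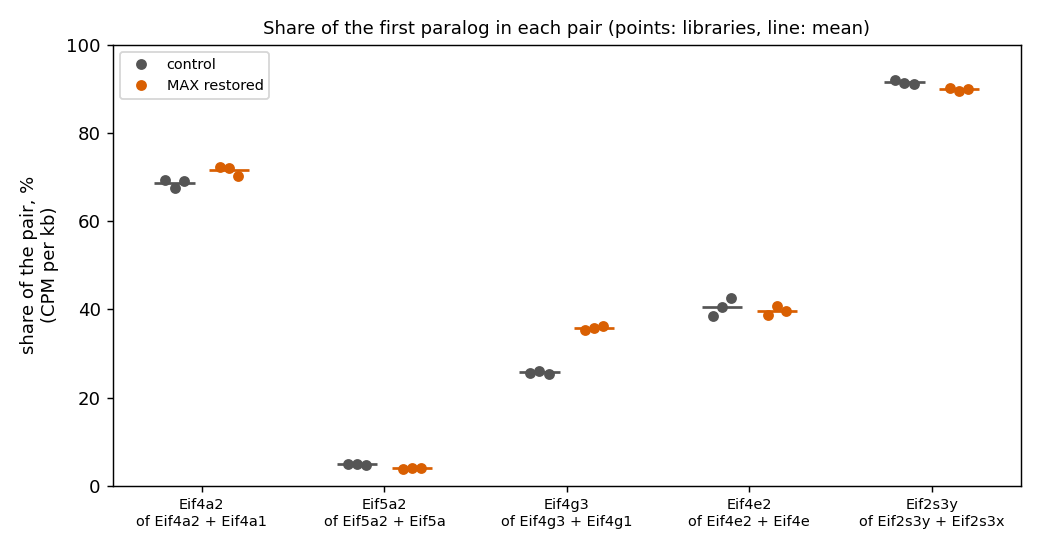
Share of the first named paralog in the summed level of its pair (CPM per kb, percent, y axis), with 1 point per library and a line at each group mean. The 3 MAX restored points of Eif4g3 lie about 10.1 percentage points above its controls, while the points of Eif4e2 overlap between groups.

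Levels per kb spanned a wide range. They rest on annotated exon length and leave out reads that map to several places, and what this does to ranks between genes was not tested. Eef2 (803 ± 54.0 CPM per kb in the controls) and Eef1a1 (748 ± 13.5) stood first, and their control ranges overlapped. Eif4h (231 ± 6.38), Eif1ax (216 ± 8.15) and Eif5a (206 ± 1.55) followed in the controls. With MAX restored Eif1ax was at 115 ± 3.78 CPM per kb, below Eif3h (192 ± 1.53) and Eif3c (161 ± 3.88). Within eIF3 the tested subunits lay between 50.2 (Eif3m) and 188 (Eif3h) CPM per kb in the controls. eIF2B subunits lay between 7.997 (Eif2b3) and 56.3 (Eif2b2), and eEF1B subunits between 26.2 (Eef1g) and 140 (Eef1b2).

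Positions on the chromosomes were described with the tested genes around each member, up to 25 on each side. Leaving out Eif1ax and Eif4g3, the neighbours' medians lay between -0.20 and 0.18, and the median over all 56 members with enough neighbours was 0.01. Of those 56 members 49 lay below their neighbours' median, a share that was not computed for all tested genes. All 41 of the 56 that were called lower did so. That follows largely from the call, as most neighbours' medians lay near 0. The median of member minus neighbours over all 56 was -0.23. Eif2s3y had too few neighbours on Y.

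**Figure D4:**
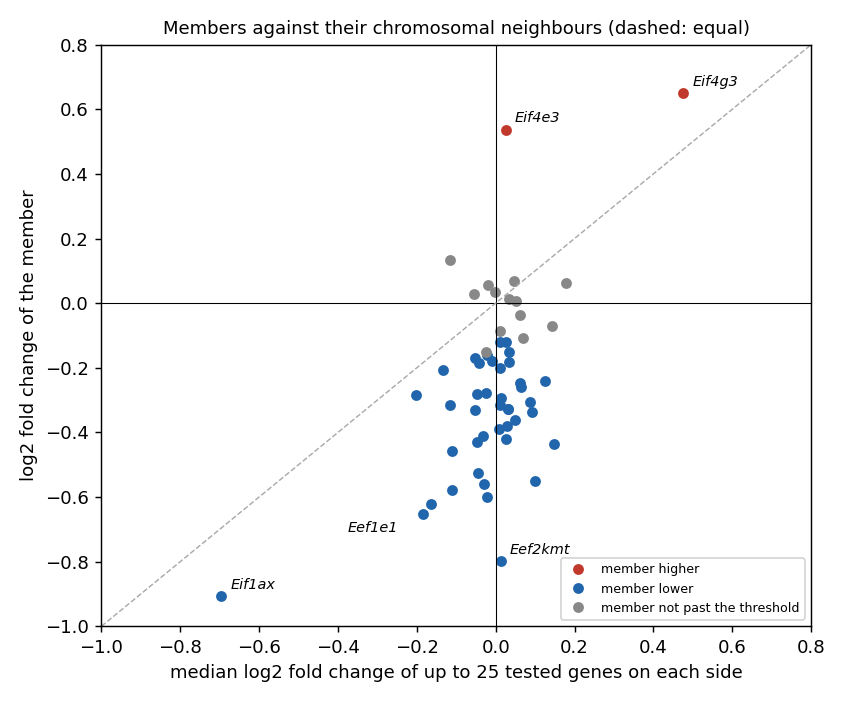
Log2 fold change of each member (y axis) against the median log2 fold change of the tested genes around it (x axis), coloured by call, with a dashed line where both are equal. Most points stand near 0 on the x axis and below the line, while Eif1ax at -0.70 and Eif4g3 at 0.48 on the x axis lie apart.

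Other genes of the pathway came from lists written with earlier results of these data known. They are read against 32.3% of all tested genes lower and 31.2% higher. Their difference from the members was not tested. Of 24 regulators of initiation 14 were lower (58.3%) and 3 higher (12.5%), with a median log2 fold change of -0.16. The largest fall was in Eif4ebp1, whose product holds eIF4E away from eIF4G (158 ± 5.83 to 60.7 ± 0.496 CPM, log2 -1.38, SE 0.05). Pabpc1, the poly(A)-binding protein that bridges to eIF4G, fell 1.41-fold. Mtor rose 1.43-fold (log2 0.52), in a neighbourhood on chromosome 4 with a median of 0.50, and Pdcd4, an inhibitor of eIF4A, rose 1.18-fold. Of 9 termination, recycling and hypusine genes 5 were lower (55.6%) and none higher, with the release factor gene Gspt1 at log2 -0.34. Of 10 mitochondrial translation factors 4 were lower (40.0%), a share near that of all genes, and 1 was higher, with a median of -0.08. The elongation factors Gfm1 (-0.31) and Tsfm (-0.32) were among the lower ones, and the initiation factor gene Mtif2 was the higher one (0.22). Tufm, a further elongation factor gene of this list, named here after its values were seen, did not pass (log2 -0.07, adjusted p = 0.638).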

How the data were processed

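Each deposited file holds unnormalised read counts by gene symbol. The authors counted them with featureCounts 1.6.0 over the UCSC annotation of mm9, per the file headers, ignoring strand and with options off for multimapping reads and for reads on more than 1 gene. The submitters' processing notes name STAR 2.5.2a, bcl2fastq 1.8.4 and mm9. Each library started from 500 ng of RNA. Paralogs of near-identical sequence may thus be undercounted, and reads of antisense or overlapping genes cannot be told apart.

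The filter of edgeR 4.0.16 (filterByExpr, minimum count 10; R 4.3.3) left 12664 genes, which were scaled by TMM. Group was the 1 term of its two-sided quasi-likelihood test, and p-values were adjusted by Benjamini-Hochberg across those genes. Standard errors are the absolute log2 fold change over the square root of F. Groups came from the labels. Every tested member was named; libraries were given singly for eIF2, eIF2B, eIF4F, eEF1, the ends of eIF3, paralog pairs and other called members past 0.5 in log2. Members and lists were chosen with earlier results of these data known. No pair of replicates lay within sampling noise. The scripts were tested on simulated data. Alternatives were other scalings and filters, DESeq2 1.42.0, limma 3.58.1 voom, a stricter threshold, the replicate block, a gene length trend and leaving out each library. Promoter letters came from RefSeq (GRCm38.p6), and no coordinate was carried between builds.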

Additional observations from a re-analysis of the deposited data

How the results depend on the processing

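The 42 lower members became between 38 and 44 over the alternatives and the 2 higher ones 2 or 3. Over all genes tested the lower calls lay between 3418 and 4260 and the higher calls between 3243 and 4243. No called member changed direction in any of the alternatives. Over all alternatives 3 eIF2 and 4 eEF1 subunits were lower throughout, eIF2B had 2 or 3 and eIF3 between 8 (length trend removed) and 11 (without control 1). In eIF4F 2 subunits were lower, but 1 with DESeq2 and 1 at an adjusted p under 0.01, and between 1 and 2 when each library was left out, Eif4a1 being the gene lost each time. With the trend in gene length removed, 39 of 44 called members kept their call, Eif1b, Eif3k, Eif3l, Eif4a1 and Eif4a3 lost it, and Eif3h (log2 0.14) passed as higher and Eif4g1 (-0.12) and Eif4g2 as lower; the cause was not tested. Direction changed only in members not past the threshold: Eif1 (log2 0.0248) and Eif4g2 (-0.088) with the length trend removed, Eif2b1 without a count filter (-0.0017), and 4 genes when each library was left out, where Eif2b1 lay between -0.0517 and 0.0603, Eif3h between -0.0119 and 0.0661, Eif4a2 between -0.0003 and 0.0777 and Eif4g2 between -0.0146 and 0.0359. With the replicate number as a block 42 members were lower and 3 higher, with Eif2ak3 added (as with upper quartile scaling). In all 8034 genes were called, against 8040. Deviations of same-numbered libraries from their group means had correlations of 0.0035, 0.0355 and -0.0241. Those of libraries with different numbers lay between -0.0695 and 0.0635. No pairing by number was seen, but so few libraries cannot settle whether the numbers pair the samples. Eef1a2, with at most 10 counts in a library, was too low to test at this depth.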

Other observations

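The gamma subunit of eIF2 is encoded on both sex chromosomes, and the pair was added after its values were seen. Per kb of annotated exon, Eif2s3y made up 91.5% ± 0.502 of the summed level of Eif2s3y and Eif2s3x in the controls and 89.9% ± 0.424 with MAX restored (SD, n = 3; exact two-sided permutation p = 0.1, the smallest possible). Eif2s3y was at 40.2 ± 2.80 CPM per kb in the controls and Eif2s3x at 3.73 ± 0.247. Reads that map to several places were not counted, and how much either gene lost this way was not tested.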
